A study of Homo sapiens with 28 samples.

Results

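The genes described here are 10 enzymes and partners that write repressive marks on chromatin: EZH1, EZH2, EED, SUZ12, JARID2 and RBBP7 of Polycomb repressive complex 2, and DNMT1, DNMT3A, DNMT3B and UHRF1 of DNA methylation. They were taken by symbol, under no rule on their values but with earlier results of these data known, from the 19662 gene symbols in each of the expression tables, and 9 of the 10 have a row in both. The expression of UHRF1 was not analysed here, and only its promoter was searched. The study asked what the transcription factor ONECUT2 does in prostate cancer cells with and without oxygen shortage, and RNA-Seq of 16 libraries in 8 groups of 2 is used here. PC3 cells, an androgen-independent prostate cancer line, were transfected with a control siRNA (siCtrl) or with siRNAs that silence ONECUT2 (siOC2), and LNCaP cells, an androgen-responsive prostate adenocarcinoma line, carried an empty vector or a vector for Flag-tagged ONECUT2 (Flag-OC2). Each was kept in normoxia or in hypoxia at 0.2% oxygen. Silencing with siRNA is transient and partial, and each siOC2 group holds 1 library with siRNA1 and 1 with siRNA2, so a difference between these libraries and a difference between the siRNAs cannot be told apart within a group. Nothing in the labels says that libraries of a group came from separate cultures, so the p-values measure the spread between these libraries, which may be technical.

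Polycomb repressive complex 2 places methyl groups on lysine 27 of histone H3, a mark of silenced genes. EZH2 or its slower relative EZH1 is the catalytic subunit, EED and SUZ12 are needed for activity, RBBP7 binds histones, and JARID2 is an accessory subunit that helps to bring the complex to its targets and tunes its activity. DNMT1 copies DNA methylation onto newly made DNA with UHRF1 as its guide, and DNMT3A and DNMT3B set new methylation. EZH2 is known for high levels in aggressive and neuroendocrine prostate cancer, and EZH2, DNMT1 and UHRF1 are known to be higher in dividing cells.

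In GRCh37, the build of the tables, EZH2 lies at chr7:148504349-148581413 on the minus strand, JARID2 at chr6:15246300-15522273 on the plus strand and SUZ12 at chr17:30264026-30328057 on the plus strand (positions from GENCODE v44 lifted to GRCh37). These are the 3 members that were higher in hypoxic LNCaP cells and passed the test below, so the 250 bases before their first listed start are shown, from the RefSeq promoter table of GRCh38.p14. Capitals mark matches on either strand to the core of the hypoxia response element (ACGTG or GCGTG), to ONECUT sites (ATCGAT or ATTGAT) or to E2F sites (TTTCCCGC, TTTCGCGC, TTTGCCGC or TTTGGCGC). The ACGTG letters also lie inside the E-box CACGTG.
JARID2, chr6:15245819-15246068, plus strand: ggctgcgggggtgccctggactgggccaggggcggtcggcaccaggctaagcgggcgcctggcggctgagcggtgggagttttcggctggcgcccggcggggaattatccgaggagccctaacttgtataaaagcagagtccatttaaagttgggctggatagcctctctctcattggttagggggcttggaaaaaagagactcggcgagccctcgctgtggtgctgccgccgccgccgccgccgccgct
EZH2, chr7:148884292-148884541, minus strand: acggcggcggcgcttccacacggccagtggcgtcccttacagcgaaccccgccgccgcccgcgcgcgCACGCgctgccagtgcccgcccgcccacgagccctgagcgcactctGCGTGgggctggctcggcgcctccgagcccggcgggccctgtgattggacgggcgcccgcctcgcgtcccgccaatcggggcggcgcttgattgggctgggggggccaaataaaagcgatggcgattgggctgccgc
SUZ12, chr17:31936757-31937006, plus strand: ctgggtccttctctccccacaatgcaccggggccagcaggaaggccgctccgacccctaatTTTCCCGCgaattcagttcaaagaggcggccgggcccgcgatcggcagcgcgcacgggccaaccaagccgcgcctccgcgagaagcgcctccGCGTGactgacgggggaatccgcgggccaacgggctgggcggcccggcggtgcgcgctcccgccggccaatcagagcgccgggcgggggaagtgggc
The EZH2 window holds 2 matches to the hypoxia core, at bases -183 to -179 on the reverse strand and -137 to -133 on the gene's strand, counted back from the start. The SUZ12 window holds 1 such match, at -97 to -93, and 1 E2F match, at -189 to -182. The JARID2 window holds none of these letters. EZH2, JARID2 and RBBP7 each have 2 listed starts, UHRF1 has 3 and DNMT3A has 6. Only the first start of each gene was searched, so the counts below leave out the other starts. Over the 10 members, all of which were found in the promoter table, 7 windows held the hypoxia core, 3 an E2F site (EZH1, SUZ12 and UHRF1) and 0 an ONECUT site. Over 27305 windows of all genes the shares were 43.1%, 2.79% and 6.33%. The members' windows held 3 (DNMT3B) to 40 (RBBP7) CpG dinucleotides, where the median of all windows was 11.

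Defining markers separated the cell lines, apart from VIM and CDH1, whose ranges overlapped between the lines. In PC3 libraries KRT8 was at 41.95 to 75.0 RPKM, KRT18 at 14.2 to 19.8, VIM at 30.2 to 353 and CD44 at 171 to 661, and KLK3 was listed at 0. In LNCaP libraries KLK3 was at 1842 to 3997 RPKM, KLK2 at 423 to 1359 and TMPRSS2 at 103 to 181. The epithelial keratins KRT8 and KRT18 were at 207 to 524 and 129 to 180 there, and VIM was at 23.6 to 58.2. CDH1, an epithelial adhesion gene at 0.741 to 6.87 RPKM in PC3, was at 0 to 397 in LNCaP with a median of 332. Its value of 0 may be a failed estimate, which was not tested. ONECUT2 was at 1.77 and 1.16 RPKM in siCtrl and 0.276 and 0.204 in siOC2 in normoxia, and at 0.648 and 0.550 against 0.125 and 0.214 in hypoxia. The fitted log2 difference was -2.18 ± 0.65 (SE, limma, adjusted p = 0.332) in normoxia and -1.39 ± 0.65 (limma, adjusted p = 0.439) in hypoxia, with no overlap of the libraries. Only the siCtrl normoxia libraries reached 1 RPKM, so in PC3 ONECUT2 passed the filter on low values only through the group where it was highest. ONECUT2 was at 2.89, 7.86, 11.5 and 3.09 RPKM in the 4 empty vector libraries, and without a value in the Flag-OC2 libraries, so their label could not be checked on it. Known hypoxia targets rose in LNCaP cells for 13 of 13 genes tested in each vector group and in PC3 cells for 4 of 15 in siCtrl and 0 of 15 in siOC2 (limma), where 14 of 15 were higher at an unadjusted P under 0.05 in each. Relative depth, estimated from the steps between low values, was 0.549 to 1 in LNCaP and 0.347 to 1.146 in PC3, where siOC2 hypoxia replicate 1, siCtrl hypoxia replicate 2 and siCtrl normoxia replicate 1 were the shallow ones at 0.347, 0.382 and 0.417.

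RPKM, a read count scaled to the length of the gene and to the size of the library, allows levels of different genes to be set side by side within a line. In LNCaP cells RBBP7 and DNMT1 were the most abundant members, with medians of 167 and 150 RPKM over 8 libraries and ranges that overlapped. SUZ12 followed at 34.5, EZH2 at 22.5, EZH1 at 13.7 and EED at 12.2 RPKM, and each of these ranges overlapped that of its neighbour. JARID2 at 6.60 RPKM stayed below every EED value, DNMT3A at 4.56 overlapped JARID2, and DNMT3B at 2.57 stayed below every DNMT3A value. PC3 cells showed the same leading order, RBBP7 at a median of 254 RPKM, DNMT1 at 85.5, SUZ12 at 17.4, EZH2 at 9.46 and EZH1 at 3.69, with ranges that did not overlap between RBBP7, DNMT1 and SUZ12. DNMT3B at 2.03, JARID2 at 1.46 and DNMT3A at 1.28 RPKM had the lowest medians in PC3 and overlapped one another. This order is of medians over all groups, and in the siRNA2 libraries DNMT3B, at 7.99 and 6.85, lay above EZH1, at 2.86 and 3.35 RPKM. The tables of both lines are set side by side only, since the difference between lines was not tested. RBBP7 has a close paralog in RBBP4, so their levels are uncertain where the authors' counting could split shared reads.

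EED was listed at 0 in each of the 8 PC3 libraries and at 11.5 to 15.2 RPKM in LNCaP. PICALM, its neighbour on chromosome 11, shared this pattern. In all, 17 genes were listed at 0 in every PC3 library and at 10 RPKM or more in every LNCaP library, among 6389 genes at that level in LNCaP, and 3 genes showed the reverse. KAT2A, which cells in general express, is among the 17, so a value of 0 here may be a failed estimate and says nothing of whether PC3 cells express EED. No EED comparison was made in PC3, which leaves 8 members tested there and 9 in LNCaP.

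Hypoxia in LNCaP cells gave the calls among these genes. A gene passed at a Benjamini-Hochberg adjusted p under 0.05 over all genes tested, from limma on log2(RPKM + 0.1). This scale understates the change of low genes, and in bulk RNA fewer cells with a transcript and less of it per cell cannot be told apart. In empty vector cells JARID2 and SUZ12 rose and RBBP7 fell, so 2 of 9 members passed as higher and 1 of 9 as lower, where 18.2% and 14.1% of all 12283 genes did. In Flag-OC2 cells JARID2, EZH2 and SUZ12 rose, 3 of 9, and 0 fell, where 18.4% and 8.49% of all genes did. In empty vector cells the shares of the members lay near those of all genes. The members' median log2 change was 0.17 in empty vector and 0.20 in Flag-OC2 cells, beside 0.02 and 0.09 over all genes.

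**Figure D1:**
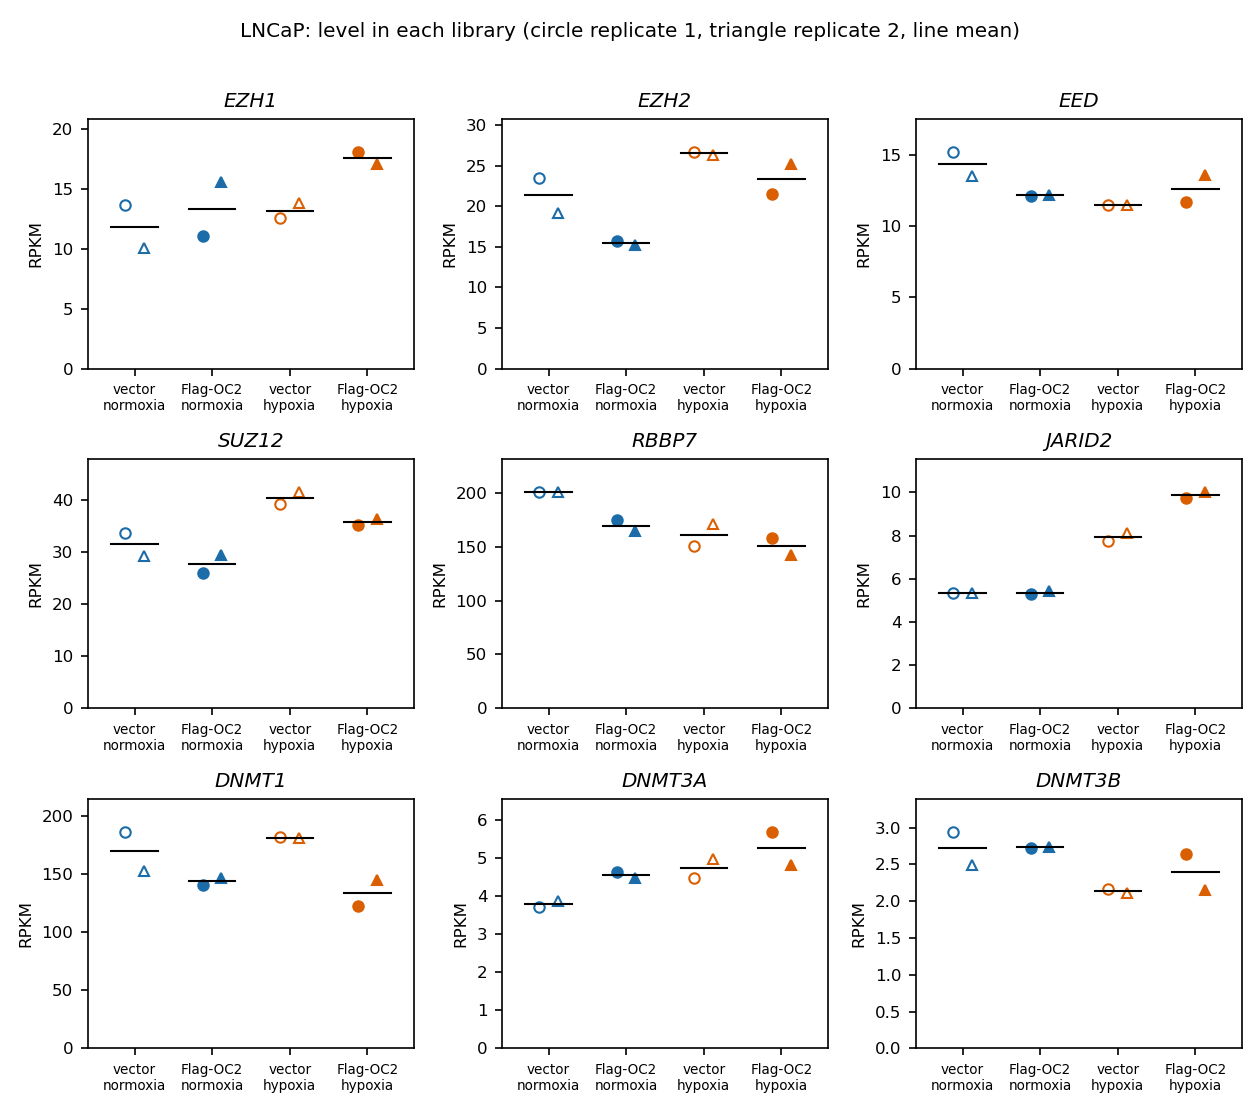
Level of each member in the 8 LNCaP libraries, in RPKM on an axis that starts at 0, with circles for replicate 1, triangles for replicate 2, blue for normoxia, orange for hypoxia, open for empty vector, filled for Flag-OC2 and a line at the mean of each group. JARID2 runs from 5.28 to 5.44 in the normoxia libraries and from 7.76 to 10.03 in the hypoxia libraries.

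JARID2, the accessory subunit, had the largest log2 change of the members with hypoxia in each vector group. It was at 5.33 and 5.34 RPKM in empty vector and 5.28 and 5.44 in Flag-OC2 cells in normoxia. In hypoxia it was at 7.76 and 8.13 in empty vector and 9.75 and 10.03 in Flag-OC2 cells. The normoxia libraries of both vectors lay together, and every hypoxia library lay above them. The log2 change with hypoxia was 0.56 ± 0.11 (SE), or 1.48-fold, in empty vector cells (limma, adjusted p = 0.00768) and 0.87 ± 0.11, or 1.83-fold, in Flag-OC2 cells (limma, adjusted p = 0.00167). The second call held in all 15 alternative fits (limma, adjusted p 0.00153 to 0.0183), and the first was lost without empty vector hypoxia replicate 1 or 2 (limma, adjusted p = 0.0515 and 0.0691). The rise was 0.31 ± 0.16 larger on the log2 scale with Flag-OC2, with a 95% interval of -0.06 to 0.68, and this interaction did not pass (limma, adjusted p = 0.386). In hypoxia, JARID2 in Flag-OC2 libraries lay above both empty vector libraries, by 0.31 ± 0.11 log2 units (limma, adjusted p = 0.115).

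EZH2, the main catalytic subunit, was at 23.5 and 19.2 RPKM in empty vector and 15.8 and 15.3 in Flag-OC2 cells in normoxia, and at 26.7 and 26.3 against 21.5 and 25.2 in hypoxia. Flag-OC2 libraries lay below the empty vector libraries at each oxygen level, and hypoxia libraries lay above normoxia libraries in each vector group. With Flag-OC2, EZH2 rose in hypoxia by 0.58 ± 0.13 log2 units, 1.50-fold (limma, adjusted p = 0.0135). That call was lost without Flag-OC2 hypoxia replicate 2 or Flag-OC2 normoxia replicate 1 (limma, adjusted p = 0.0976 and 0.0530). In empty vector cells the log2 difference was 0.32 ± 0.13 (limma, adjusted p = 0.0928). It passed only without empty vector normoxia replicate 1, the higher of that group, and without a library the difference ran from 0.17 to 0.46. The interaction was 0.27 ± 0.18 log2 units with a 95% interval of -0.15 to 0.69 (limma, adjusted p = 0.498), so a difference in the hypoxia response of EZH2 between the vectors was not shown.

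SUZ12, a core subunit, was at 33.8 and 29.4 RPKM in empty vector and 25.9 and 29.5 in Flag-OC2 cells in normoxia, and at 39.3 and 41.6 against 35.2 and 36.4 in hypoxia. All 4 hypoxia libraries lay above all 4 normoxia libraries. The log2 change was 0.36 ± 0.11 in empty vector cells (limma, adjusted p = 0.0397) and 0.37 ± 0.11 in Flag-OC2 cells (limma, adjusted p = 0.0426), 1.28-fold and 1.29-fold. These calls lay close to the threshold and were lost in 9 and 10 of 15 alternative fits. They were lost without either Flag-OC2 hypoxia or either empty vector hypoxia library (limma, adjusted p 0.0659 to 0.200 and 0.0770 to 0.180). The first was also lost without empty vector normoxia replicate 2 (limma, adjusted p = 0.146) and the second without Flag-OC2 normoxia replicate 1 (limma, adjusted p = 0.187).

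RBBP7, the histone-binding subunit, was at 201 RPKM in both empty vector libraries and at 175 and 164 in Flag-OC2 cells in normoxia, and at 150 and 171 against 158 and 142 in hypoxia. It fell with hypoxia in empty vector cells by 0.33 on the log2 scale (SE 0.10), 0.798-fold (limma, adjusted p = 0.0403). The call was lost in 10 of 15 alternative fits, among them those without any 1 of the empty vector libraries or of the Flag-OC2 hypoxia libraries (limma, adjusted p 0.0572 to 0.273). With Flag-OC2 the log2 difference was -0.18 ± 0.10 (limma, adjusted p = 0.228). EED was at 15.2 and 13.5 RPKM in normoxic and 11.5 in both hypoxic empty vector libraries, a log2 difference of -0.32 ± 0.12 (limma, adjusted p = 0.0739) that passed under upper-quartile scaling (limma, adjusted p = 0.0490). In Flag-OC2 cells EED was at 12.1 and 12.2 in normoxia and 11.7 and 13.6 in hypoxia, with overlap, and its interaction was 0.37 ± 0.17 (limma, adjusted p = 0.317). EZH1, the alternative catalytic subunit, ranged from 10.1 to 15.6 RPKM in normoxia and from 12.6 to 18.1 in hypoxia, with a log2 difference of 0.42 ± 0.19 in Flag-OC2 cells (limma, adjusted p = 0.144).

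None of the DNA methyltransferases passed for hypoxia in LNCaP cells. DNMT1 was at 187 and 153 RPKM in normoxic and 182 and 181 in hypoxic empty vector cells, which overlapped. DNMT3A was at 3.72 and 3.86 RPKM in normoxic and 4.48 and 4.97 in hypoxic empty vector cells, a log2 difference of 0.31 ± 0.14 (limma, adjusted p = 0.133). DNMT3B was at 2.95 and 2.49 against 2.17 and 2.11 RPKM, a log2 difference of -0.33 ± 0.18 (limma, adjusted p = 0.187). By a fold over 2 with an unadjusted P under 0.05, 0 of 9 members were called with hypoxia in empty vector or in Flag-OC2 cells, where 7.95% and 6.84% of all genes were. No interaction of a member passed at an adjusted or an unadjusted p (limma, 0 of 9 in both), where 0.244% of all genes passed at the adjusted and 16.9% at the unadjusted p.

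**Figure D2:**
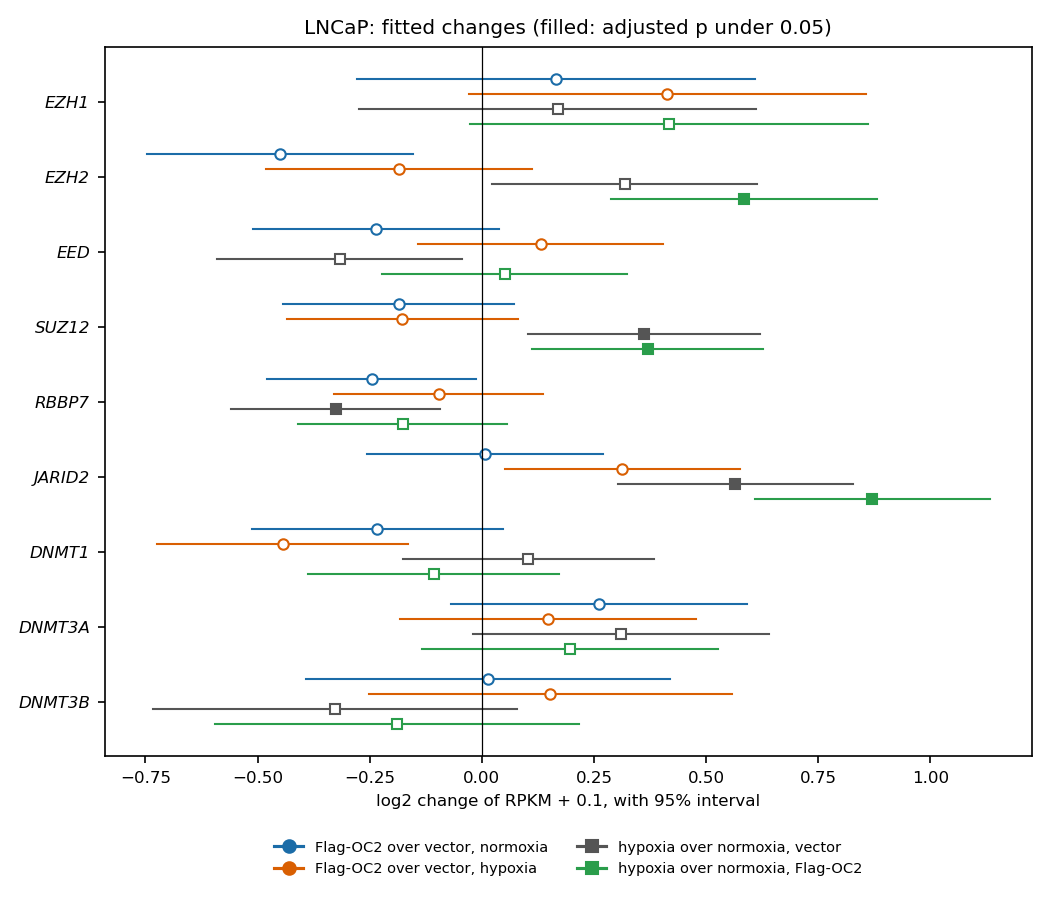
Fitted log2 change of each member in LNCaP cells with its 95% interval, for Flag-OC2 over empty vector (circles) in normoxia (blue) and hypoxia (orange), and for hypoxia over normoxia (squares) in empty vector (grey) and Flag-OC2 (green), filled where the adjusted p was under 0.05. Only hypoxia markers are filled: JARID2 and SUZ12 in both vector groups, EZH2 with Flag-OC2 and RBBP7, on the lower side, with empty vector.

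Flag-OC2 against empty vector in LNCaP cells gave no call among the members. In normoxia 0 of 9 passed in either direction (limma), where 3.56% of all genes passed as higher and 1.70% as lower, and 2 of 9 were lower at an unadjusted P under 0.05, which 24.1% of all genes met in either direction. These were EZH2, with a log2 difference of -0.45 ± 0.13 (limma, adjusted p = 0.0827), and RBBP7, with -0.25 ± 0.10 (limma, adjusted p = 0.189). SUZ12 differed by -0.19 ± 0.11 (limma, adjusted p = 0.348), DNMT1 by -0.23 ± 0.12 (limma, adjusted p = 0.281) and DNMT3A by 0.26 ± 0.14 (limma, adjusted p = 0.305). In hypoxia 0 of 9 passed in either direction (limma), where 6.72% and 4.82% of all genes did, and 2 of 9 had an unadjusted P under 0.05, which 28.2% of all genes had: JARID2, above, and DNMT1. DNMT1, the maintenance methyltransferase, was at 182 and 181 RPKM with empty vector and at 123 and 145 with Flag-OC2 in hypoxia, without overlap. Its log2 difference was -0.44 ± 0.12, 0.735-fold, with a 95% interval of -0.72 to -0.16 (limma, adjusted p = 0.0521). It passed in 4 of 15 alternative fits, among them those without empty vector normoxia replicate 1 or 2. These libraries are not part of the comparison, so the log2 difference stayed the same and only the estimate of the spread changed. EZH2 differed by -0.18 ± 0.13 (limma, adjusted p = 0.390) and EZH1 by 0.41 ± 0.19 (limma, adjusted p = 0.205). By the fold and P limits 0 of 9 members were called in normoxia and in hypoxia, where 3.29% and 4.47% of all genes were.

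Genes of the cell cycle are given beside these values. Of 40 S-phase genes tested in LNCaP, 1 passed as lower with Flag-OC2 in normoxia and 11 in hypoxia, and of 54 G2/M genes 8 and 20 did, with 0 higher in either list (limma), beside 1.70% and 4.82% of all genes lower. Under upper-quartile scaling the S-phase counts were 0 and 11 and the G2/M counts 5 and 15. The summed level of the 40 S-phase genes was 2498.5 and 2168.4 RPKM in normoxic and 1970.8 and 2146.6 in hypoxic empty vector cells, and 1948 and 1848.2 against 1504.3 and 1591.4 in Flag-OC2 cells. Flag-OC2 libraries lay below the empty vector libraries at each oxygen level, as for EZH2 and DNMT1. With hypoxia, where EZH2 and SUZ12 were higher, 10 S-phase genes passed as lower in empty vector and 17 in Flag-OC2 cells, and 0 as higher in either. Of the G2/M genes, 4 passed as higher and 1 as lower in empty vector cells and 0 and 2 in Flag-OC2 cells. Over all genes, 18.2% passed as higher and 14.1% as lower with hypoxia in empty vector cells, and 18.4% and 8.49% in Flag-OC2 cells. The part of the cell cycle in the members' values was not tested.

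Subunits and enzymes that work with or against the members are given from lists chosen by function, and their counts with hypoxia are to be read beside the 18.2% and 18.4% of all genes that rose and the 14.1% and 8.49% that fell in empty vector and Flag-OC2 cells. Of 7 other subunits of Polycomb repressive complex 2, 3 rose with hypoxia in empty vector and 5 in Flag-OC2 LNCaP cells, and 0 fell. PHF1, a subunit that reads histone marks, rose by 1.00 ± 0.17 log2 units (limma, adjusted p = 0.00399) in empty vector and 0.86 ± 0.17 (limma, adjusted p = 0.00976) in Flag-OC2 cells, from 13.4 to 26.6 RPKM and from 14.7 to 26.6 RPKM in the group means. C17orf96, also called EPOP, and MTF2 rose in both vector groups. RBBP4, the paralog of RBBP7, rose in Flag-OC2 cells by 0.53 ± 0.13 (limma, adjusted p = 0.0209). Of 24 subunits of Polycomb repressive complex 1, of which only some forms bind the mark that the members place, 9 rose in empty vector and 11 in Flag-OC2 cells (9 under upper-quartile scaling), and 0 fell. CBX2, a reader of the mark, rose from a mean of 6.22 to 12.01 RPKM in empty vector and from 6.58 to 15.0 RPKM in Flag-OC2 cells, by 0.94 ± 0.12 (limma, adjusted p = 0.00108) and 1.18 ± 0.12 log2 units (limma, adjusted p = 5.42e-04). PHC1 and KDM2B rose in both vector groups as well.

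**Figure D3:**
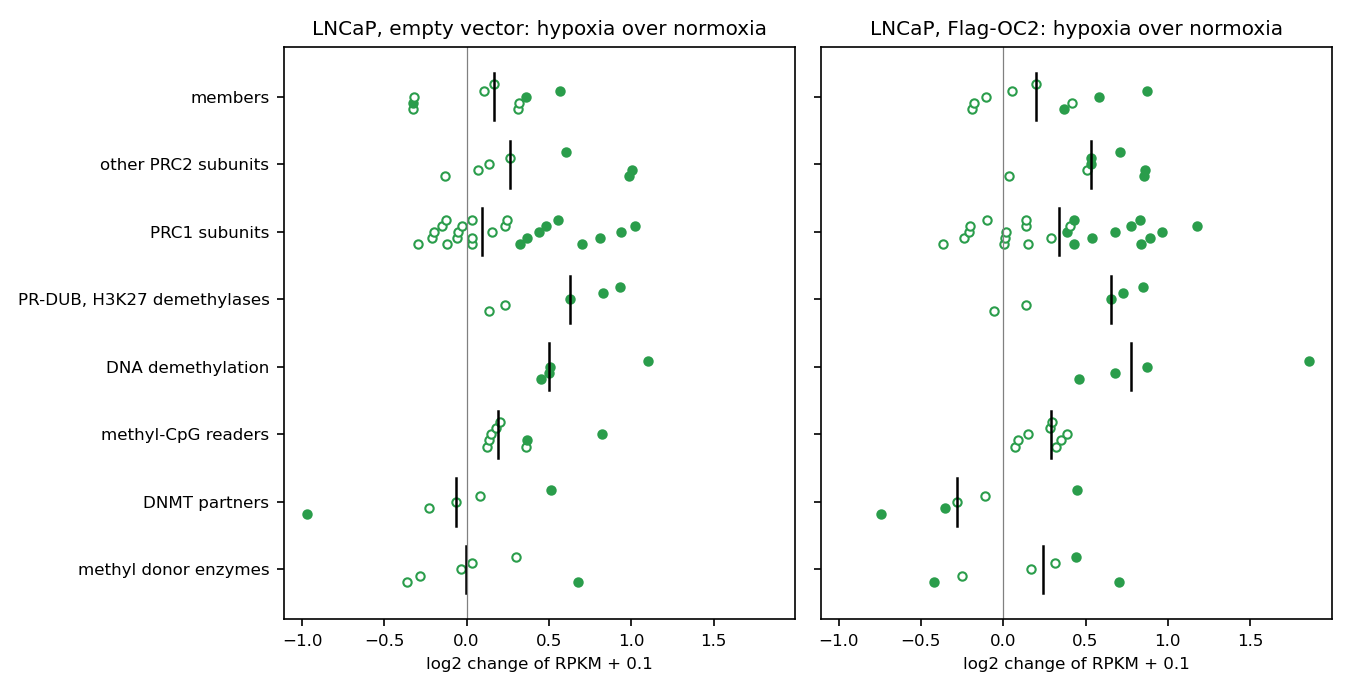
Log2 change with hypoxia in LNCaP cells for each tested gene of the members and of 7 companion lists, in empty vector (left) and Flag-OC2 cells (right), filled where the adjusted p was under 0.05, with a black line at each list's median. The vertical offset of points has no meaning. All 4 DNA demethylation genes are filled on both sides, though TET1 reached 1 RPKM only in the Flag-OC2 hypoxia libraries. The medians of the members are 0.17 and 0.20.

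Erasers of both marks also rose with hypoxia in LNCaP cells. Of 5 tested genes for removal of histone H3 lysine 27 methylation or of the Polycomb ubiquitin mark, 3 rose and 0 fell in each vector group. KDM6B, an H3K27 demethylase, was at a mean of 27.7 RPKM in normoxic and 52.8 in hypoxic empty vector cells, and at 43.2 and 71.5 with Flag-OC2. It rose with hypoxia by 0.93 ± 0.10 (limma, adjusted p = 5.76e-04) and 0.73 ± 0.10 log2 units (limma, adjusted p = 0.00230), and with Flag-OC2 by 0.64 ± 0.10 in normoxia (limma, adjusted p = 0.0135) and 0.44 ± 0.10 in hypoxia (limma, adjusted p = 0.0329). KDM6A and ASXL1 rose with hypoxia in both vector groups. With Flag-OC2, KDM6A, also an H3K27 demethylase, differed in the other direction from KDM6B and did not pass. Its log2 difference was -0.42 ± 0.14 in normoxia (limma, adjusted p = 0.113) and -0.39 ± 0.14 in hypoxia (limma, adjusted p = 0.104). TET1, TET2, TET3 and TDG, which start and finish the active removal of DNA methylation, made 4 of 4 in each vector group, and 3 of 4 in Flag-OC2 cells under upper-quartile scaling. TET1 was low, at a mean of 0.391 and 0.949 RPKM in normoxic and hypoxic empty vector cells and at 0.531 and 2.17 with Flag-OC2, log2 changes of 1.10 ± 0.29 (limma, adjusted p = 0.0230) and 1.86 ± 0.29 (limma, adjusted p = 0.00346). It reached the filter of 1 RPKM only in the Flag-OC2 hypoxia libraries, at 1.84 and 2.50 RPKM. TET1 was thus tested only through the group where it was highest, and its calls are not independent of the filter.

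Readers and partners of DNA methylation were mixed. Of 8 methyl-CpG readers 2 rose with hypoxia in empty vector cells, among them ZBTB4 by 0.37 ± 0.11 (limma, adjusted p = 0.0306), and 0 in Flag-OC2 cells, where 4 were higher at an unadjusted P under 0.05 (limma). Of 5 tested partners of the methyltransferases, 1 rose and 1 fell in empty vector and 1 rose and 2 fell in Flag-OC2 cells. HELLS, a chromatin remodeler needed for DNA methylation, was at a mean of 10.3 RPKM with empty vector and 5.22 with Flag-OC2 in hypoxia, and it fell by 0.97 on the log2 scale (SE 0.15, limma, adjusted p = 0.00779). CDCA7, which works with HELLS, fell with hypoxia in empty vector cells from 9.31 to 4.71 RPKM (limma, adjusted p = 0.00589), and USP7, which stabilizes DNMT1 and UHRF1, rose in both vector groups. HELLS, CDCA7 and PCNA are on the S-phase list too. Of 6 enzymes of the methyl donor cycle 1 rose in empty vector, and 2 rose and 1 fell in Flag-OC2 cells. For these 7 lists 0 interactions passed (limma), so a difference between the vectors in the hypoxia response was not shown. Between 0 and 4 per list had an unadjusted P under 0.05, which 16.9% of all genes had.

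Genes known as Polycomb targets did not move in 1 direction. Of 23 listed, 12 were tested in LNCaP and 11 stayed below 1 RPKM in all 8 libraries, 10 of them HOX genes. With hypoxia 3 rose and 1 fell in empty vector and 3 rose and 0 fell in Flag-OC2 cells, and with Flag-OC2 2 rose and 1 fell at each oxygen level. Of all genes, 18.2% rose and 14.1% fell with hypoxia in empty vector and 18.4% and 8.49% in Flag-OC2 cells. With Flag-OC2, 3.56% of all genes rose and 1.70% fell in normoxia, and 6.72% and 4.82% in hypoxia. CDKN1C, a cyclin-dependent kinase inhibitor, was at a mean of 0.741 RPKM with empty vector and 8.75 with Flag-OC2 in normoxia, and at 2.57 and 15.0 in hypoxia. It rose with Flag-OC2 by 3.39 ± 0.14 (limma, adjusted p = 1.67e-05) and 2.50 ± 0.14 log2 units (limma, adjusted p = 5.12e-05). HOXC6 rose and CDKN2A fell with hypoxia in empty vector cells. Of 18 genes known to be silenced by promoter methylation, 10 stayed below 1 RPKM in all LNCaP libraries, GSTP1 among them at no more than 0.0583, and 12 did in PC3, where GSTP1 was at 132 to 170 RPKM. Of the 8 tested in LNCaP, 1 rose and 2 fell with hypoxia in empty vector and 1 rose and 3 fell in Flag-OC2 cells. RARB, a retinoic acid receptor, rose from a mean of 4.20 to 14.2 RPKM in empty vector cells (limma, adjusted p = 3.14e-04), and MAGEA1 fell. RNA levels do not measure the marks themselves.

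In PC3 cells no member passed in any comparison of the main fit. With siOC2, 0 of 8 passed in normoxia and in hypoxia, where 0.00819% and 0.0901% of all 12214 genes did, and with hypoxia 0 of 8 in siCtrl and in siOC2 cells, where 0.270% and 0.00819% did. No interaction passed, with 0% of all genes. At an unadjusted P under 0.05, 0 of 8 members were called in each of these (limma), where 9.20% and 12.1% of all genes were with siOC2, 7.38% and 6.71% with hypoxia and 1.03% for the interaction. By the fold and P limits 0 of 8 were called in each, where the shares of all genes were 5.21% and 7.50% with siOC2 and 3.86% and 3.46% with hypoxia. The members' median log2 difference with hypoxia in siOC2 cells was -0.12, beside -0.22 over all genes, and upper-quartile scaling moved the latter to -0.09. Libraries varied more in PC3, where the standard error of a log2 change ran from 0.30 for DNMT1 to 0.66 for DNMT3A. The 95% interval reached 0.68 (DNMT1) to 1.51 (DNMT3A) to either side before any adjustment. This spread takes in the difference between the siRNAs, which the main fit counts as spread within the siOC2 groups. With a term for the siRNA, added after the data were seen, 1 of 8 members passed with siOC2 in normoxia and 0 in hypoxia (limma). With hypoxia 0 passed in siCtrl and in siOC2 cells, while 437 and 123 of all genes did in place of 33 and 1. Larger values missed the threshold of the main fit as well, among them that of ONECUT2 above. With the siRNA term ONECUT2 passed in normoxia (limma, adjusted p = 0.0325) and missed in hypoxia. The filter let ONECUT2 in only through the siCtrl normoxia libraries, so this pass is not independent evidence of silencing.

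**Figure D4:**
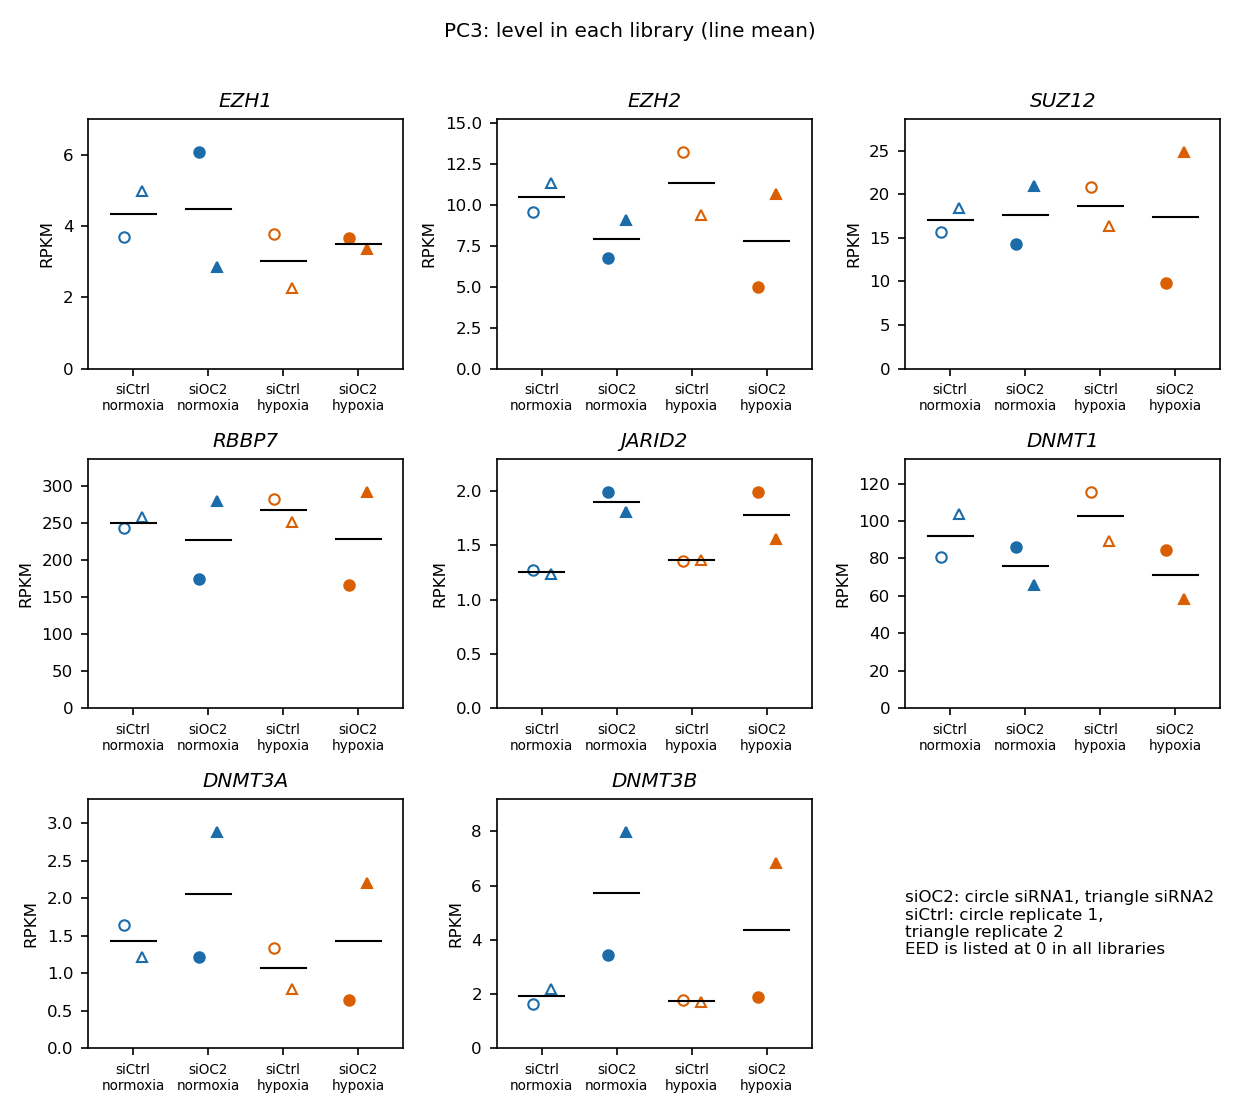
Level of the 8 members with values in the PC3 libraries, in RPKM on an axis that starts at 0, blue for normoxia, orange for hypoxia, open for siCtrl, filled for siOC2, with circles for siRNA1 (or siCtrl replicate 1), triangles for siRNA2 (or siCtrl replicate 2) and a line at the mean of each group. DNMT3B with siRNA2 stands at 7.99 and 6.85, above all other libraries.

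DNMT3B, a de novo methyltransferase, was at 1.65 and 2.19 RPKM in siCtrl and 3.45 and 7.99 in siOC2 cells in normoxia, and at 1.79 and 1.70 against 1.88 and 6.85 in hypoxia. Both siRNAs lay above both siCtrl libraries at each oxygen level, by 1.80-fold with siRNA1 and 4.16-fold with siRNA2 of the siCtrl mean in normoxia, and by 1.07-fold and 3.92-fold in hypoxia. The fitted log2 difference was 1.42 ± 0.62 in normoxia, with a 95% interval of -0.002 to 2.84 (limma, adjusted p = 0.541), and 1.00 ± 0.62 in hypoxia (limma, adjusted p = 0.568). Without siOC2 replicate 2 these were 0.83 and 0.10, and without siOC2 replicate 1 they were 2.01 and 1.91. With a term for the siRNA in the fit, an alternative chosen after the data were seen that describes the mean of these 2 siRNAs, DNMT3B passed in normoxia (limma, adjusted p = 0.0166) and missed in hypoxia (limma, adjusted p = 0.0588), and 770 and 1338 genes passed in place of 1 and 11.

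JARID2 was at 1.27 and 1.24 RPKM in siCtrl and 1.99 and 1.80 in siOC2 cells in normoxia, and at 1.36 and 1.37 against 1.99 and 1.56 in hypoxia, so that every siOC2 library lay above every siCtrl library. The log2 difference was 0.56 ± 0.38 (limma, adjusted p = 0.716) and 0.35 ± 0.38 (limma, adjusted p = 0.770). EZH2 was at 9.54 and 11.3 RPKM in siCtrl and 6.77 and 9.06 in siOC2 cells in normoxia, and at 13.2 and 9.38 against 4.98 and 10.6 in hypoxia, where the groups overlapped. Its log2 difference was -0.41 ± 0.40 (limma, adjusted p = 0.838) and -0.61 ± 0.40 (limma, adjusted p = 0.595). The hypoxia value was -0.07 without siOC2 replicate 1, -1.15 without siOC2 replicate 2 and -0.36 without siCtrl replicate 1. The normoxia value was -0.20 without siOC2 replicate 1 and -0.61 without siOC2 replicate 2. DNMT1 was at 80.7 and 104 RPKM in siCtrl and 86.3 and 66.0 in siOC2 cells in normoxia, and at 116 and 89.5 against 84.7 and 58.1 in hypoxia, a log2 difference of -0.28 ± 0.30 (limma, adjusted p = 0.857) and -0.54 ± 0.30 (limma, adjusted p = 0.516). Without a library of the groups compared these ran from -0.47 to -0.08, the latter without siOC2 replicate 2, and from -0.81 to -0.26, the former without siOC2 replicate 1. Of 40 S-phase and 54 G2/M genes, 33 and 51 had lower fitted values with siOC2 in normoxia and 33 and 49 in hypoxia, and 0 passed (limma). Over all genes, 61.3% had higher fitted values with siOC2 in normoxia and 47.6% in hypoxia. At an unadjusted P under 0.05 (limma), 6 and 15 of the listed genes were lower in normoxia and 13 and 32 in hypoxia. Of all genes, 9.20% and 12.1% met that limit in either direction. The part of the cell cycle genes in the EZH2 and DNMT1 values was not tested.

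The siRNAs differed from each other in 4 members. SUZ12, RBBP7 and DNMT3A lay below both siCtrl libraries with siRNA1 and above both with siRNA2, at each oxygen level. SUZ12 was at 14.3 and 9.84 RPKM with siRNA1 and 21.0 and 24.9 with siRNA2 in normoxia and hypoxia, where siCtrl libraries ran from 15.7 to 20.9. RBBP7 was at 174 and 166 RPKM with siRNA1 and 280 and 292 with siRNA2, and siCtrl libraries ran from 243 to 283. DNMT3A was at 1.22 and 0.644 RPKM with siRNA1 and 2.89 and 2.21 with siRNA2, and at 0.796 to 1.64 in siCtrl. Its normoxia value with siRNA1, 1.219 RPKM, was all but level with the lower siCtrl library at 1.221. In the fit with the siRNA term, siRNA2 was higher than siRNA1 in SUZ12, RBBP7, DNMT3A and DNMT3B, 4 of 8 members, where 24.4% of all genes differed between the siRNAs in either direction. ONECUT2 itself was at 0.276 and 0.125 RPKM with siRNA1 and 0.204 and 0.214 with siRNA2. The siRNA1 hypoxia library was also the shallowest, at a relative depth of 0.347, and the siRNA1 normoxia library was the deepest, and the part of depth was not tested. EZH1 was at 2.28 to 6.09 RPKM over the PC3 libraries, and its groups overlapped in each comparison.

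Some genes followed EZH2 and JARID2 across libraries in both lines. Among 10948 genes tested in both lines, ranked by the lower of Pearson's r over the 8 PC3 and over the 8 LNCaP libraries, POT1 (0.93 in PC3 and 0.95 in LNCaP), ESPL1 (0.95 and 0.93) and EXOC6B (0.92 and 0.92) were most like EZH2. ATP6V0D1 (0.93 and 0.94), NEDD9 (0.92 and 0.96) and SMURF2 (0.91 and 0.95) were most like JARID2. These are the highest of many values over libraries that share their groups and their depths, and are given as a description.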

How the data were processed

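RNA-Seq of 16 libraries (8 PC3, 8 LNCaP) was used, grouped by their labels, and 12 ChIP-Seq samples were not used here. The authors made stranded mRNA libraries (TruSeq) and mapped trimmed reads with STAR 2.4.2a on hg19. The deposited RPKM values per gene came from Cufflinks 2.1.1, run on GENCODE models for GRCh37, and were used without further scaling. Read totals are unknown here, so relative depth was estimated from the steps between low values.

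For each line, log2(RPKM + 0.1) was fitted over all 4 groups with limma 3.58.1 (R 4.3.3), with a mean-variance trend and no block, for every gene that reached 1 RPKM in 2 or more libraries. Tests are 2-sided, errors are standard errors, and p-values were adjusted by Benjamini and Hochberg within a contrast. With 2 libraries a group, no exact permutation test of a comparison can pass 0.05. Comparisons that use the same group of libraries are not independent. The members and lists were chosen with earlier results of these data known. The genes named are the members, ONECUT2, the line markers and, per list, up to 3 passing genes with the smallest adjusted p. RBBP4, TDG, PCNA, GSTP1, PICALM and KAT2A were named after their values were seen. Some listed genes are not reported here. Gene positions are from GENCODE and promoters from RefSeq (GRCh38.p14). Alternatives were a pseudocount of 1, no filter, a filter at 5 RPKM, upper-quartile scaling, only the groups compared, a replicate block, depth as covariate, the fold and P limits, and leaving out each library. A crossed block and a siRNA term were added after the data were seen.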

Additional observations from a re-analysis of the deposited data

Results flagged for a closer look

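The results that stood out were differences between the siRNAs against ONECUT2 in PC3 cells. For SUZ12, RBBP7 and DNMT3A the siRNAs lay on opposite sides of the siCtrl libraries at both oxygen levels, though DNMT3A with siRNA1 in normoxia (1.219 RPKM) was all but level with a siCtrl library (1.221 RPKM), and the difference itself passed, as siRNA2 over siRNA1 on the log2 scale, at 0.94 ± 0.27 for SUZ12 (SE, limma, adjusted p = 0.0189), 0.75 ± 0.21 for RBBP7 (limma, adjusted p = 0.0196) and 1.41 ± 0.41 for DNMT3A (limma, adjusted p = 0.0214). DNMT3B was above siCtrl with both, and differed by 1.50 ± 0.32 (limma, adjusted p = 0.00397). EZH2 differed by 0.75 ± 0.28 (limma, adjusted p = 0.0645). Each siRNA was seen in 1 library at each oxygen level, and 24.4% of all genes differed. With 2 libraries a group, samples far from their group could not be tested.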

How the results depend on the processing

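Of all 85 member changes fitted, 37 turned direction when a library was left out (60 of 680 values) and 13 under another alternative (18 of 625), with main P values of 0.389 or more. Many of these values could not turn. Leaving out a library of a group not compared keeps the estimate, and so do the filters, the blocks, the siRNA term and a fit of only the groups compared. The shares of values that turned therefore do not measure how stable the directions are. Of the 32 chosen to be given with a value, 0 did turn. Without 1 library, 233 of 256 values kept their side of the threshold, 20 lost the call and 3 gained it, and under the other alternatives 213 of 232 kept it, 13 lost it and 6 gained it. In LNCaP cells 3 members passed for hypoxia with empty vector. That count was 0 by the fold and P limits, 1 with no filter, 1 with only the groups compared and 1 with depth as covariate, and 0 to 3 without a library (0 without empty vector hypoxia replicate 1 or 2). With Flag-OC2, 3 passed, against 0 by the fold and P limits and 1 to 3 without a library (1 without Flag-OC2 hypoxia replicate 2 or normoxia replicate 1). For Flag-OC2 in hypoxia 0 passed, against 1 with a pseudocount of 1, 1 with no filter, 2 with only the groups compared and 0 to 1 without a library. For siOC2 in normoxia 0 passed, against 1 with the siRNA term. The cause was not tested. Over all genes, 1418 passed for Flag-OC2 in hypoxia and 963 to 2546 under the other settings with all libraries at the adjusted p, and 646 in normoxia, against 120 to 652. In PC3, upper-quartile scaling raised the calls for siOC2 from 1 to 25 in normoxia and from 11 to 125 in hypoxia.

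The labels give no pairs by replicate number outside the siOC2 groups, where the number is the siRNA. The correlation of same-numbered deviations was 0.618 between the siOC2 groups, which share their siRNAs. It was -0.186 to 0.076 over the other PC3 group pairs and -0.065 to 0.275 over LNCaP group pairs. The main fit did not use the pairing by siRNA. With a replicate block, 1 member passed for hypoxia with empty vector and 2 with Flag-OC2, and 0 in every other comparison. The block gave 25 and 102 genes for siOC2 in PC3, against 1 and 11, and a crossed pairing, chosen after the data were seen, 0 and 11. Shallow libraries, 2 libraries a group and siOC2 groups whose 2 libraries differ in their siRNA limit what PC3 can show.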
